A study of Acipenser schrenckii with 6 samples.

Results

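Oxidative phosphorylation loci of the nuclear genome were examined in gut tissue of Amur sturgeon (Acipenser schrenckii) on 2 diets. A locus was taken when its product name named ubiquinone NADH dehydrogenase, succinate dehydrogenase, the cytochrome b-c1 complex, cytochrome c oxidase, or a subunit, F, coupling or membrane component of ATP synthase, and the protein genes of the mitochondrial genome were left out. This gave 178 of the 82023 features in the deposited table, of which 61 belong to complex I, 12 to complex II, 15 to complex III, 56 to complex IV and 34 to complex V. Subunits made up 146 of these loci, and 32 were assembly factors and other helper proteins. The loci carry 95 different product names, so that many proteins have several loci, and 170 loci have a number in place of a symbol. Poly(A) RNA was sequenced in 3 gut libraries of fish given commercial feed and 3 of fish given Limnodrilus, a tubificid worm, after 30 days. The sample labels give no other treatment or age, and as genotype only the species. They do not say whether a library is 1 fish or a pool, so p-values speak only of the spread among these 6 libraries, which may be technical.

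Oxidative phosphorylation makes most of the ATP of an animal cell. Complexes I and II pass electrons to ubiquinone, complex III passes them to cytochrome c, complex IV passes them to oxygen, and complex V uses the resulting proton gradient to make ATP. Most subunits are encoded in the nucleus and imported, while a few core subunits of complexes I, III, IV and V come from the mitochondrial genome, and in the gut the absorptive epithelium and the muscle wall both depend on the pathway.

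The libraries held 9.95 to 10.5 M reads on commercial feed and 13.9 to 19.7 M on Limnodrilus, as recovered from the deposited values, so depth and diet differ together. Ribosomal RNA features took 2.86%, 2.41% and 0.927% of the reads on commercial feed against 0.354%, 0.151% and 0.296% on Limnodrilus, and 31269 to 33771 against 36554 to 37401 features were above 0, without overlap in either. The part of these differences in the results was not tested. Markers of cell types of the gut wall also differed between libraries. The summed level of 24 smooth muscle marker loci was 8440, 5280 and 689 FPKM (fragments per kilobase, scaled to the library total) on commercial feed, for libraries 1 to 3 in order, and 2437 to 3477 FPKM on Limnodrilus. Between diets, 0 of its 19 tested loci passed the test described below, and the loci at 0 were a mylk locus in all 6 libraries and a des locus in 4 of them. The summed level of 36 epithelial marker loci was 181 to 1276 FPKM on commercial feed and 2019 to 8539 FPKM on Limnodrilus, with up to 5 loci at 0 in a library. Of the 31 tested loci, 7 were higher (22.6%, beside 14.0% of all tested features) and 0 lower.

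With Limnodrilus, subunit loci of all 5 complexes were among those called higher, and the median changes of complexes III, IV and V were above those of complexes I and II. Diets were compared on log2(FPKM + 1) with limma across all 23644 features averaging 1 FPKM or more, and a locus was called at an adjusted p under 0.05. Of the 178 loci, 163 were tested, 45 were called higher on Limnodrilus, 2 were called lower and 116 did not pass. This is 27.6% called higher, where 14.0% of all tested features were called higher and 3.64% lower. The 15 loci not tested had a mean under 1 FPKM, and 4 of them were at 0 in all libraries. That mean was taken over all 6 libraries, so a locus low on 1 diet could be tested through the other. Of the loci called higher, NDUFA4L2 LOC117967051 and cytochrome c oxidase 8A LOC117398688 had commercial feed means of 0.105 and 0.563 FPKM. The median log2 fold change, Limnodrilus minus commercial feed, was 0.69 over the tested loci and 0.24 over all tested features. Under median-of-ratios scaling these medians were 0.41 and 0.01, with 30 loci higher and 2 lower; this is 18.4% of the loci called higher, beside 9.46% of all tested features. All 3 Limnodrilus libraries lay above all 3 commercial feed libraries for 79 tested loci and below them for 4, beside 28.4% and 11.5% of all tested features. In bulk tissue, fewer cells of a type and less RNA per cell cannot be told apart. The epithelial markers above were higher in the same libraries as these loci, and their part in the result was not tested. The count of loci called higher rested on each library of the Limnodrilus group. It was 11 without library 1 (6.75% of the loci, beside 2.79% of all tested features), 5 without library 2 (3.07% beside 2.71%) and 1 without library 3 (0.613% beside 2.38%). The share of the loci called higher was thus near that of all features without Limnodrilus library 2 and below it without library 3. The count was 33 without commercial feed library 1 (20.2% beside 10.3%) and 27 without commercial feed library 2 (16.6% beside 6.26%). Without commercial feed library 3 it was 45 (27.6%), but the share of all tested features was then 20.7%. With commercial feed libraries 1 and 2 both left out, which leaves 1 library of that diet, the median log2 fold change was 0.72 over the loci and 0.08 over all tested features.

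Subunit loci and assembly factors were also counted apart. Of the 136 tested subunit loci, 42 were higher (30.9%, beside 14.0% of all tested features) and 2 lower. Their median log2 fold change was 0.83. For complexes I to V in order, 20.8%, 37.5%, 26.7%, 43.75% and 35.7% of the tested subunit loci were higher. Of the 27 tested assembly and other factors, 3 were higher (11.1%, beside the same 14.0%) and 0 lower. The median of the factors was 0.22, close to that of all tested features. The difference between these groups of loci was not tested.

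**Figure D1:**
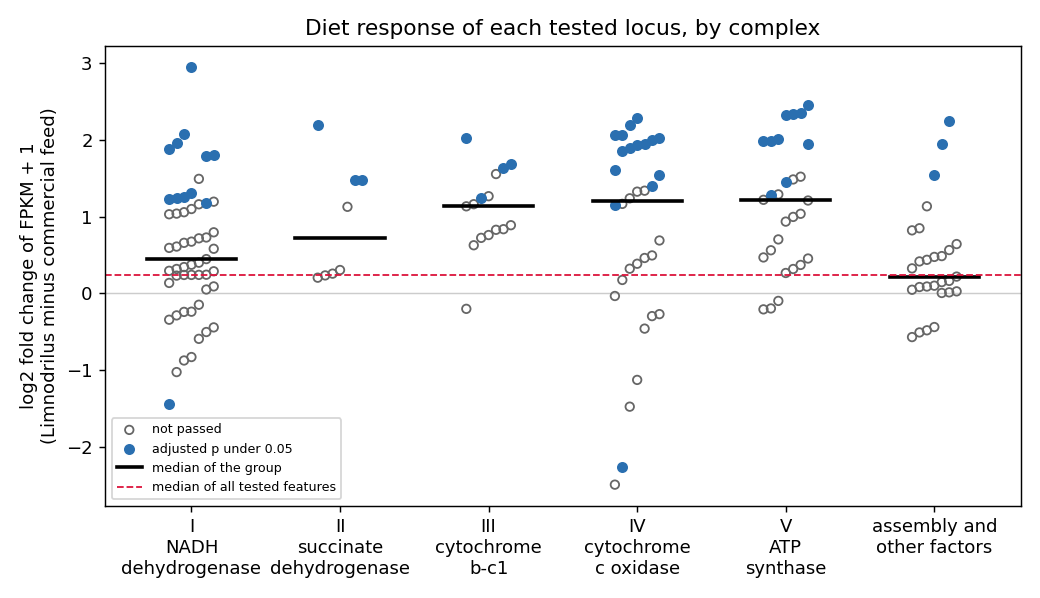
Log2 fold change of FPKM + 1, Limnodrilus minus commercial feed, of each of the 163 tested loci by complex, with filled points for loci at an adjusted p under 0.05. Black bars mark group medians and the dashed line the median of all tested features, 0.24; the medians of complexes III, IV and V lie above 1.1 and that of complex I at 0.45.

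The summed FPKM of the 57 complex I subunit loci was 873, 1481 and 1225 on commercial feed and 1480, 1692 and 1770 on Limnodrilus. The groups overlapped, since Limnodrilus library 1 lay just under commercial feed library 2. For the 8 complex II subunit loci the sums were 72.3, 136 and 133 against 196, 195 and 197 FPKM, and for the 15 complex III loci 259, 457 and 354 against 685, 814 and 881. For the 36 complex IV subunit loci they were 1378, 2132 and 1363 against 2149, 3431 and 2803, and for the 30 complex V subunit loci 711, 1404 and 1008 against 1761, 2798 and 2502. The diets did not overlap for complexes II to V, although for complex IV Limnodrilus library 1 and commercial feed library 2 were close. Over all complexes the sum was 4329 ± 1178 FPKM on commercial feed and 7785 ± 1367 on Limnodrilus (SD, n = 3), a ratio of means of 1.80.

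The complexes took different shares of this sum. Complex I took 26.5%, 26.4% and 30.0% of the nuclear subunit sum on commercial feed and 23.6%, 18.9% and 21.7% on Limnodrilus. Complex V took 21.6%, 25.0% and 24.7% against 28.1%, 31.3% and 30.7%, and complex III 7.85%, 8.14% and 8.67% against 10.9%, 9.12% and 10.8%. Neither the lower share of complex I nor the higher shares of complexes III and V overlapped between diets, whereas the shares of complexes II and IV did. These are sums over loci and carry no test, and 3 against 3 libraries cannot give a permutation p below 0.1.

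The 13 protein genes of the mitochondrial genome encode core subunits of the same enzymes. Their sum was 263528, 24560 and 16460 FPKM on commercial feed and 74513, 36501 and 69416 on Limnodrilus, so the groups overlapped and commercial feed library 1 stood far above the others. The mitochondrial sum was 80.0 times the nuclear subunit sum in that library and 4.03 to 11.9 times in the other libraries. Because FPKM is scaled to the library total, this RNA lowers the FPKM of all other loci in commercial feed library 1. After scaling to the total without mitochondrial and ribosomal RNA features, 39 oxidative phosphorylation loci were higher and 2 lower, which is 23.9% higher beside 13.3% of all tested features.

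**Figure D2:**
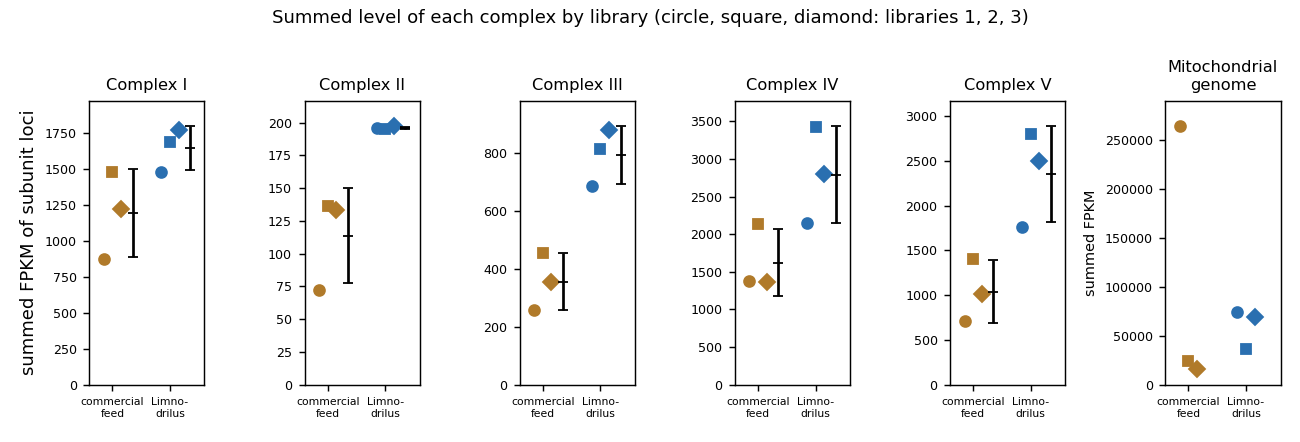
Summed FPKM of the nuclear subunit loci of each complex and of the 13 mitochondrial-genome protein genes, by library and diet, with mean and SD over 3 libraries beside the points (omitted for the mitochondrial genome). Complexes II to V do not overlap between diets, complex I does, and commercial feed library 1 stands apart in the mitochondrial genome at 263528 FPKM.

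Complex I, the NADH dehydrogenase, had 53 tested subunit loci, of which 11 were higher and 1 lower, with a median log2 fold change of 0.45. Its beta subcomplex, part of the membrane arm, had 4 of 12 tested loci higher (33.3%, beside 14.0% of all tested features) and 1 lower, with a median of 1.06. The alpha subcomplex had 5 of 24 higher (20.8%) and a median of 0.49. The core subunits that carry electrons from NADH to ubiquinone had 1 of 10 higher (10%, below the share of all tested features). Their median was 0.28, close to that of all tested features.

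NDUFB8, an accessory subunit of the membrane arm, has 2 loci that both rose. LOC117418495 (sequence NC_081201.1, 28567024 to 28569816) was at 10.1, 10.9 and 9.56 FPKM on commercial feed and 37.6, 55.6 and 46.8 on Limnodrilus, which is 2.07 ± 0.313 (SE) in log2 units (limma adjusted p = 0.00993). LOC117415923 was at 13.8, 10.5 and 9.44 against 36.1, 38.1 and 51.3 FPKM, a log2 fold change of 1.80 (adjusted p = 0.0147). Both loci had tight commercial feed values and no overlap between diets. The NDUFC2 locus LOC117973057, another membrane-arm accessory subunit, was at 7.56, 12.3 and 5.21 against 26.5, 39.6 and 30.4 FPKM, a log2 fold change of 1.88 (adjusted p = 0.0193).

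The core subunit called higher was NDUFS8 LOC131733182, which carries iron-sulfur clusters. It was at 7.45, 0.322 and 1.99 FPKM on commercial feed and 15.4, 29.9 and 29.3 on Limnodrilus, a log2 fold change of 2.95 ± 0.659 (adjusted p = 0.0243). The groups did not overlap, but the commercial feed values were far apart. Without commercial feed library 2 the log2 fold change was 2.31 with a limma adjusted p of 0.0579. Without commercial feed library 1 it was 3.64. With a pseudocount of 0.1 in place of 1 it was 3.67, and by limma-voom on recovered reads 3.70. This locus is 624 bases long, and its 0.322 FPKM in commercial feed library 2 is below 3 reads.

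The complex I locus called lower was NDUFB7 LOC131705052 (NC_081222.1, 7889245 to 7894289), an accessory subunit of the beta subcomplex. It was at 5.54, 11.3 and 5.55 FPKM on commercial feed and 1.91, 1.35 and 2.88 on Limnodrilus, a log2 fold change of -1.44 ± 0.376 (adjusted p = 0.0386). The groups did not overlap, but the locus did not pass without any 1 library other than commercial feed library 3, with adjusted p-values of 0.0502 to 0.136. It also did not pass by limma-voom on recovered reads (adjusted p = 0.0764), or by limma with no filter on low values (0.0688) or with a replicate block (0.0724). The other NDUFB7 locus, LOC117402164, was more abundant and had higher values on Limnodrilus, at 24.8, 28.2 and 17.1 against 43.2, 59.5 and 60.1 FPKM, with a log2 fold change of 1.19 and an adjusted p of 0.0521.

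The NDUFA4L2 locus LOC117967051, named as part of the alpha subcomplex, was also called and is described below with its paralog. Further complex I loci called higher were NDUFB6 (ndufb6, log2 fold change 1.26), NDUFB3 LOC117413489 (1.31), NDUFA2 LOC117431283 (1.23), NDUFA8 LOC117396796 (1.18), NDUFA10 (ndufa10, 1.25), and NDUFA11 LOC117966185 (1.96, or 3.13 without commercial feed libraries 1 and 2). These are accessory subunits. The complex I locus of highest mean over the 6 libraries, though highest in neither diet alone, was NDUFA1 LOC117430935. It was at 51.0, 67.5 and 46.3 against 75.03, 85.5 and 99.9 FPKM; the groups did not overlap, and the log2 fold change of 0.66 did not pass (adjusted p = 0.208).

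Complex II, succinate dehydrogenase, is the one complex built from nuclear subunits alone and also works in the citric acid cycle. Each of its 4 subunits has 2 tested loci. A single locus rose for SDHA, SDHC and SDHD, and neither locus passed for SDHB, for 3 of 8 loci higher and 0 lower and a median log2 fold change of 0.72. SDHD LOC117966659, a membrane anchor, was at 7.67, 3.88 and 3.32 FPKM on commercial feed and 23.2, 27.3 and 24.6 on Limnodrilus, a log2 fold change of 2.19 ± 0.361 (adjusted p = 0.0119). Its partner LOC117397097 was at 8.70, 37.4 and 26.5 against 35.9, 18.8 and 22.9 FPKM, overlapping between diets (0.26; adjusted p = 0.776).

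For SDHA, the flavoprotein that oxidizes succinate, LOC117399409 was at 13.9, 14.1 and 11.04 against 35.9, 39.0 and 38.2 FPKM, a log2 fold change of 1.47 (adjusted p = 0.0191). The partner LOC117394881 was at 9.61, 9.67 and 15.04 against 12.8, 12.01 and 14.5 FPKM, with overlapping groups (0.21; adjusted p = 0.684). For SDHC, the other membrane anchor, LOC117410193 was at 5.09, 4.18 and 5.74 against 14.5, 12.3 and 21.3 FPKM (1.48; adjusted p = 0.0241), while LOC117966725 was at 4.51, 8.05 and 9.42 against 6.72, 6.04 and 14.6 (0.23; adjusted p = 0.733). In both pairs the diets were apart at the first locus and overlapped at the second. For SDHB, the iron-sulfur subunit, the log2 fold changes were 0.31 at LOC117425464 and 1.13 at LOC117432145, with adjusted p-values of 0.66 and 0.144.

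Complex III, the cytochrome b-c1 complex, had 4 of 15 loci higher and 0 lower, and a median log2 fold change of 1.13. For 10 of its 15 loci the Limnodrilus libraries lay above all commercial feed libraries, beside 28.4% of all tested features. Subunit 9 LOC131699022, a small membrane subunit, was at 14.2, 20.9 and 11.3 FPKM on commercial feed and 52.6, 73.8 and 68.0 on Limnodrilus, a log2 fold change of 2.03 ± 0.358 (adjusted p = 0.0137). Subunit 6, the hinge protein near the cytochrome c1 site, rose at both loci. LOC117405748 was at 13.2, 34.9 and 28.9 against 75.6, 83.8 and 75.9 FPKM (1.68; adjusted p = 0.0336), and LOC117416943 at 21.8, 39.5 and 29.3 against 74.98, 81.9 and 131 (1.63; adjusted p = 0.0292). At all 3 loci the lowest Limnodrilus value was well above the highest commercial feed value. Subunit 1 LOC131697677, a core protein facing the matrix, was the other locus called (1.25; adjusted p = 0.0390). The complex III locus of highest mean over the 6 libraries, subunit 8 LOC117431289, was at 39.4, 61.7 and 37.9 against 93.8, 98.9 and 115 FPKM, without overlap but with an adjusted p of 0.0562.

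Complex IV, cytochrome c oxidase, had the most called subunit loci, with 14 of 32 tested higher, 1 lower and a median log2 fold change of 1.20. Its range was also the widest downward, to -2.49. The core of the enzyme is made in the mitochondrion, and the nuclear subunits examined here surround it. In mammals several of these exist as paralogous forms used in different tissues.

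Subunit 8A, a small membrane subunit, rose at both loci. LOC117970850 was at 10.3, 19.2 and 14.0 FPKM on commercial feed and 54.3, 88.7 and 78.3 on Limnodrilus, a log2 fold change of 2.28 ± 0.374 (adjusted p = 0.0117). LOC117398688 was at 0.186, 0.772 and 0.732 against 4.01, 9.95 and 5.29 FPKM, with a log2 fold change of 2.19 (adjusted p = 0.0137) that was 3.36 with a pseudocount of 0.1 and 3.43 by limma-voom on recovered reads, which did not pass (adjusted p = 0.0545). Neither locus overlapped between diets. LOC117398688 reached the minimum mean of 1 FPKM through its Limnodrilus values. Subunit 8B LOC117432271 was at 18.8, 121 and 17.98 against 63.3, 78.6 and 19.02 FPKM, so its spread within a diet was larger than the difference between diets (0.39; adjusted p = 0.776).

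Both loci of the subunit 7A-related protein, which in mammals takes part in joining complex III to complex IV, rose. LOC117403021 was at 8.74, 11.5 and 10.6 against 38.0, 49.97 and 50.2 FPKM (2.06; adjusted p = 0.0101), and LOC117411515 at 2.38, 5.77 and 4.90 against 16.9, 24.4 and 20.3 (2.06; adjusted p = 0.0144). The subunit 6C-1 locus LOC117429818 was at 1.39, 1.63 and 1.03 against 5.83, 8.69 and 8.13 FPKM (1.86; adjusted p = 0.0113), but did not pass by limma-voom on recovered reads (2.43, adjusted p = 0.0581). These are small accessory subunits, and at none of the loci did the diets overlap. Subunit 5B LOC117397792, a zinc-binding subunit on the matrix side (log2 fold change 2.0), the other 6C-1 locus LOC117964459 (2.02), 7C LOC131697524 (1.54) and 7B LOC117412647 (1.16) were also called higher. The other 5B loci, LOC117416136 (-0.29), LOC117418273 (0.32) and LOC117966444 (1.24), did not pass. Of the 4 tested 6B1 loci, LOC131740188 (1.89, adjusted p = 0.0451) and LOC131725030 (1.39, adjusted p = 0.0367) were called higher, while LOC131725052 (0.49) and LOC117431391 (-0.03) did not pass. Under median-of-ratios scaling LOC131740188 and LOC131725030 did not pass either (limma adjusted p = 0.0692 and 0.108).

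Subunit 4 binds the mitochondrially made core and has 2 isoforms, and 1 locus of each was called, in opposite directions. The isoform 1 locus LOC117424284 (NC_081207.1, 22931005 to 22935528) was at 39.6, 42.2 and 47.3 FPKM on commercial feed and 115, 246 and 169 on Limnodrilus, a log2 fold change of 1.95 ± 0.383 (adjusted p = 0.0174). The other abundant isoform 1 locus, LOC117425666, had the highest mean of complex IV over the 6 libraries, at 64.2, 156 and 237 against 210, 429 and 300 FPKM, with overlapping groups (1.17; adjusted p = 0.177). The isoform 2 locus LOC117427699 (NC_081217.1, 2956019 to 2963891) was at 228, 306 and 86.9 FPKM on commercial feed and 59.9, 25.2 and 34.1 on Limnodrilus, a log2 fold change of -2.26 ± 0.559 (adjusted p = 0.0326). All commercial feed values were above all Limnodrilus values, and library 3 was the lowest of its diet. The second isoform 2 locus, LOC117420714, was at 43.5, 63.1 and 20.2 against 14.5, 11.97 and 13.1 FPKM, also without overlap, with a log2 fold change of -1.47 and an adjusted p of 0.0593.

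Isoform 2 made up 72.4%, 64.9% and 27.4% of summed subunit 4 FPKM on commercial feed (libraries 1 to 3) and 18.6%, 5.22% and 9.12% on Limnodrilus. The share in commercial feed library 3 was nearer to the Limnodrilus libraries than to the other libraries of its own diet. The mean log2 level of the smooth muscle markers was 6.91, 6.10 and 3.86 on commercial feed and 5.98, 5.56 and 5.49 on Limnodrilus, so it was also lowest in commercial feed library 3, but there it was below the Limnodrilus libraries while isoform 2 was above them. The part of muscle RNA in the isoform 2 result was not tested. LOC117427699 no longer passed without library 1 (adjusted p = 0.0695) or 2 (0.0902) of commercial feed or Limnodrilus library 1, 2 or 3 (0.0672, 0.120 and 0.112), and without commercial feed libraries 1 and 2 together the log2 fold change was -1.20 (adjusted p = 0.161).

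Other paralogous forms of complex IV varied most among the commercial feed libraries. Subunit 6A LOC117398324 was at 40.5, 106 and 5.37 FPKM on commercial feed and 7.69, 2.11 and 4.96 on Limnodrilus, a log2 fold change of -2.49 that did not pass (adjusted p = 0.112). It was high in commercial feed libraries 1 and 2 and low in the other 4 libraries. Without commercial feed library 3 the log2 fold change was -3.62 (adjusted p = 0.00992), whereas leaving out both other libraries of that diet gave -0.23.

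The 4 loci of subunit 7A2 had unlike patterns. LOC117410769 was at 23.5, 41.4 and 52.2 against 96.6, 181 and 170 FPKM (1.93; adjusted p = 0.0254), and LOC117969958 at 19.9, 25.8 and 45.3 against 71.7, 104 and 95.7 (1.61; adjusted p = 0.0336, but a log2 fold change of 0.96 when commercial feed libraries 1 and 2 were left out). LOC117394711 was at 54.6, 16.97 and 7.11 against 11.7, 13.2 and 3.35 FPKM (-1.12; adjusted p = 0.332), and LOC117414968 at 52.3, 38.1 and 7.58 against 20.9, 25.8 and 10.8 (-0.46; adjusted p = 0.68). The first pair was higher in all Limnodrilus libraries, while the other pair overlapped between diets and was highest in commercial feed library 1. The second pair made up 71.1%, 45.1% and 13.1% of summed 7A2 FPKM on commercial feed and 5.05% to 16.2% on Limnodrilus, a grouping made after the values were seen.

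**Figure D3:**
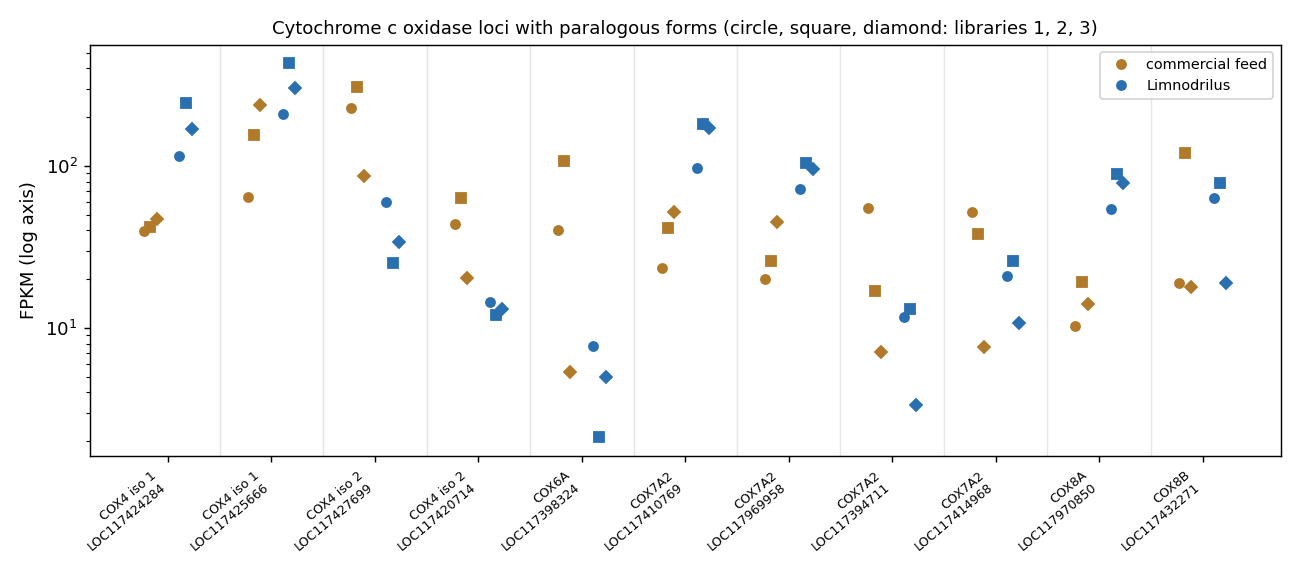
FPKM on a log axis of 11 cytochrome c oxidase loci with paralogous forms in each of the 6 libraries. The isoform 2 loci of subunit 4 lie lower in the Limnodrilus libraries, the isoform 1, 7A2 (LOC117410769, LOC117969958) and 8A loci lie higher or overlap, and subunit 6A is high in commercial feed libraries 1 and 2 alone.

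NDUFA4, which is now counted with complex IV, and its paralog NDUFA4L2, a hypoxia-induced protein in mammals, were also compared; the NDUFA4L2 loci are counted above under complex I, as their product names say. The NDUFA4 loci LOC117433325 and LOC117434772 were at 49.8 to 158 FPKM on commercial feed and 121 to 228 on Limnodrilus, with log2 fold changes of 1.32 and 0.69 that did not pass (adjusted p = 0.0586 and 0.336). The NDUFA4L2 locus LOC117967051 was at 0, 0 and 0.315 against 5.60, 1.18 and 2.81 FPKM, a log2 fold change of 1.79 (adjusted p = 0.0329) that was 4.11 with a pseudocount of 0.1 and did not pass by limma-voom (4.19; adjusted p = 0.0733). The second NDUFA4L2 locus, LOC117400926, was at 0.773, 1.61 and 0.305 against 2.65, 0.406 and 0.562 FPKM (0.14; adjusted p = 0.865). Both are low, and at this depth 3 reads on 1 kb correspond to 0.153 to 0.302 FPKM. LOC117967051 and LOC117400926 are 605 and 626 bases long, so 3 reads correspond to higher values there. The 0.315 and 0.305 FPKM in commercial feed library 3 are below 3 reads. LOC117967051 reached the minimum mean of 1 FPKM through its Limnodrilus values.

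Complex V, the ATP synthase, had 10 of 28 tested subunit loci higher and 0 lower, and a median log2 fold change of 1.21. The F1 part, which holds the catalytic sites and the central stalk, had 5 of 10 loci higher (50%, beside 14.0% of all tested features) and a median of 1.73. The c subunit, whose ring turns in the membrane, had 3 of 4 loci higher (75%, beside the same 14.0%) and a median of 1.71.

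Beta, the catalytic subunit, rose at both loci. LOC117426871 (NC_081199.1, 32540672 to 32547707) was at 22.4, 21.4 and 21.2 FPKM on commercial feed and 75.4, 161 and 118 on Limnodrilus, a log2 fold change of 2.33 ± 0.376 (adjusted p = 0.0113). LOC117412101 was at 22.1, 36.6 and 34.1 against 103, 213 and 171 FPKM, a log2 fold change of 2.33 ± 0.407 (adjusted p = 0.0135). The commercial feed values of the first locus were almost equal. For alpha, its partner in the F1 head, LOC117420623 was at 17.03, 44.9 and 28.4 against 73.6, 177 and 105 FPKM (1.95; adjusted p = 0.0336), and LOC117408365 did not pass (1.48; adjusted p = 0.0756). The ratio of summed beta to summed alpha FPKM was 0.985, 0.460 and 0.844 on commercial feed and 1.11, 1.05 and 1.26 on Limnodrilus, without overlap.

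Gamma LOC117419497, the rotating shaft, was at 23.2, 25.7 and 12.6 against 59.4, 101 and 93.2 FPKM (2.01; adjusted p = 0.0186, or 2.62 when commercial feed libraries 1 and 2 were left out). Delta LOC117428849, at the foot of the shaft, was at 6.30, 16.5 and 8.95 against 29.2, 56.4 and 43.8 (1.98; adjusted p = 0.0236). Both lay above all commercial feed values in each Limnodrilus library. The membrane subunit k LOC117415261, a small protein of the enzyme's dimer interface, was at 15.9, 36.3 and 13.3 against 104, 127 and 108 FPKM, a log2 fold change of 2.45 ± 0.432 (adjusted p = 0.0137). Among the c subunit loci, LOC117433327 was at 5.71, 15.8 and 6.68 against 32.1, 69.3 and 47.7 FPKM (2.34; adjusted p = 0.0186), LOC117434602 at 22.5, 42.4 and 25.6 against 64.9, 152 and 164 (1.98; adjusted p = 0.0291), and LOC117409396 at 71.2, 91.0 and 88.4 against 173, 279 and 247 (1.45; adjusted p = 0.0308). The fourth, LOC117426835, did not overlap between diets either and did not pass (1.29; adjusted p = 0.0898). Subunit f LOC117418579, in the membrane part, was the remaining locus called (1.28; adjusted p = 0.0390). The other subunit f loci, LOC117431666 (-0.10) and LOC117424389 (0.70), did not pass.

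Assembly factors were mostly near the median of all features, and the exceptions were few. COA3, which helps assemble the core subunit of complex IV, rose at both loci. LOC117433508 (NC_081221.1, 2937342 to 2938798) was at 11.4, 10.3 and 8.22 FPKM on commercial feed and 47.8, 56.0 and 48.4 on Limnodrilus, a log2 fold change of 2.24 ± 0.307 (adjusted p = 0.00864); it was the locus still called without Limnodrilus library 3 (adjusted p = 0.0476). LOC117435155 was at 1.71, 1.20 and 0.495 against 5.16, 4.54 and 5.42 FPKM (1.54; adjusted p = 0.0209), and its log2 fold change was 2.20 with a pseudocount of 0.1. The succinate dehydrogenase assembly factor sdhaf4, which acts on the flavoprotein, was at 5.99, 1.62 and 5.21 against 20.5, 14.3 and 18.8 FPKM (1.95; adjusted p = 0.0246). None of these loci overlapped between diets. The other 24 tested factors did not pass, and their log2 fold changes lay from -0.57 to 1.13.

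Since many subunits have 2 loci, the response of the loci of 1 protein was compared directly. Names left out were empty, uncharacterized or hypothetical ones, those beginning with tRNA, ribosomal, spliceosomal and small nucleolar RNAs, and mitochondrial-genome genes. In the rest of the table, 5987 product names had exactly 2 tested loci. The log2 ratio of the 2 loci was compared between diets with limma, a comparison added after the data were seen. Of the 58 oxidative phosphorylation pairs, 11 differed at an adjusted p under 0.05, which is 18.97% beside 11.6% of all pairs. The median size of the difference was 0.60 here and 0.49 over all pairs. Both loci were called in 7 pairs, 1 locus in 19 and neither in 32. The matching shares over all pairs are not given here, so these counts cannot be weighed against them. Of the 19 pairs with 1 locus called, 9 differed by the direct comparison, so in the other 10 a call at 1 locus alone does not show that the loci differ. No pair lay on the same sequence, and how reads from near-identical loci were shared is not given in the sources used here.

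NDUFB7 had the clearest difference, with log2 fold changes of 1.19 at LOC117402164 and -1.44 at LOC131705052, a difference of 2.63 ± 0.309 (SE; adjusted p = 0.0105). Cytochrome c oxidase 7B differed by 1.42, as LOC117412647 rose from 102, 89.4 and 94.4 to 177, 239 and 231 FPKM while LOC131697787 was at 41.9, 39.97 and 36.8 against 26.8, 34.2 and 37.8 (adjusted p = 0.0149). NDUFB1, a small membrane-arm subunit, differed by 1.44, with LOC117422685 at 32.1, 44.0 and 35.3 against 75.5, 75.5 and 89.8 FPKM and LOC117425333 at 30.7, 48.5 and 41.6 against 35.7, 20.4 and 40.9 (adjusted p = 0.0233). In these pairs 1 locus was higher in each Limnodrilus library and the other was lower or overlapped. The remaining 8 were ATP synthase k (1.52) and delta (1.66), complex III subunit 9 (1.30 in favour of LOC131699022), NDUFA4L2 (1.66 in favour of LOC117967051), SDHA (1.27 in favour of LOC117399409), SDHC (1.24), NDUFA8 (0.89) and the copper chaperone COX17 (1.29), with adjusted p-values of 0.0281 to 0.0458.

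Other pairs gave nearly equal values. The log2 fold changes were 2.06 and 2.06 at the 7A-related loci, 2.33 and 2.33 at the ATP synthase beta loci and 1.68 and 1.63 at the complex III subunit 6 loci, with SEs of the difference of 0.251, 0.265 and 0.313. The SDHD pair, at 2.19 and 0.26, did not pass the direct comparison (difference 1.94 ± 0.721; adjusted p = 0.116). The number of differing pairs was 18 without commercial feed library 1, 3 without commercial feed library 2, 0, 0 and 1 without Limnodrilus library 1, 2 or 3, and 5 with a pseudocount of 0.1. The share of all pairs that differed under these settings is not given here, so these counts cannot be weighed against it.

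**Figure D4:**
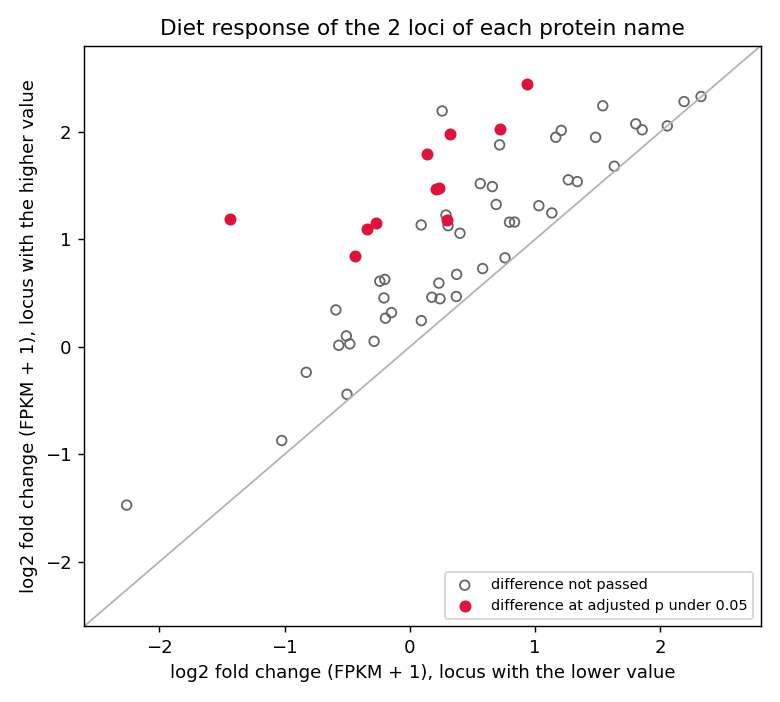
Log2 fold change of FPKM + 1 of the locus with the higher against the locus with the lower value for the 58 oxidative phosphorylation pairs that share a product name; the line marks equality. The 11 filled points passed the direct comparison, led by NDUFB7 at -1.44 and 1.19.

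Genes that work beside the complexes were taken from 5 lists, whose shares called higher are read against the 14.0% of all tested features. Electron carriers and ATP export had 9 of 34 tested loci higher (26.5%) and 1 lower, with a median log2 fold change of 0.92. ADP/ATP translocase 2, which exchanges ATP for ADP across the inner membrane, rose at LOC117430656 from 12.4, 8.24 and 4.73 to 82.6, 163 and 104 FPKM, a log2 fold change of 3.66 (adjusted p = 0.00758). Cytochrome c LOC117412329 rose from 20.6, 21.1 and 13.8 to 121, 124 and 144 FPKM (2.76; adjusted p = 0.00758), and sulfide:quinone oxidoreductase LOC117963045, which feeds electrons from sulfide into the ubiquinone pool, from 4.63, 3.60 and 9.79 to 52.8, 65.9 and 51.6 (3.13; adjusted p = 0.00799). None of these loci overlapped between diets. Electron transfer flavoprotein-ubiquinone oxidoreductase LOC117409239, which brings electrons from fatty acid and amino acid oxidation, fell from 21.6, 29.4 and 32.6 to 7.35, 5.74 and 10.6 FPKM (-1.72; adjusted p = 0.0192).

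Coenzyme Q biosynthesis had 3 of 21 tested loci higher (14.3%, near the share of all features) and 0 lower, with a median log2 fold change of 0.61. The loci called were the COQ2 locus LOC117409244, which attaches the isoprenoid tail (1.57), and 2 COQ10 loci, LOC117967012 (1.48) and si:ch73-141c7.1 (1.77). Assembly and insertion factors whose names fall outside the rule had 4 of 38 higher (10.5%, below the share of all features) and 1 lower, with a median of 0.54. Of these atpaf1, which assembles the F1 part of ATP synthase, was at 1.02, 1.19 and 0.628 against 8.64, 7.90 and 9.12 FPKM (2.30; adjusted p = 0.00758), and the copper protein SCO1 LOC117424545 and the complex III factor UQCC5 LOC117963550 also rose (1.53 and 1.39). The complex III factor UQCC3 LOC131730913 fell, from 4.53, 11.6 and 7.28 to 1.95, 1.25 and 2.89 FPKM (-1.49; adjusted p = 0.0410). Among the loci called higher here, COQ10 LOC117967012 and atpaf1 had commercial feed means of 0.536 and 0.947 FPKM, under the minimum of 1.

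Regulators of mitochondrial biogenesis had 3 of 19 tested loci higher (15.8%, near the share of all features) and 0 lower, with a median of 0.47. They were both parts of the GA-binding protein, a transcription factor of nuclear mitochondrial genes, at LOC117429042 (beta-1; 1.48) and LOC117406879 (alpha; 1.27), and estrogen-related receptor gamma LOC131730128 (1.13). The regulators were low, with the receptor at 0.337, 0.194 and 0.443 against 1.73, 2.12 and 1.86 FPKM. The receptor thus reached the minimum mean of 1 FPKM through its Limnodrilus values. Genes that shape the inner membrane had 7 of 25 higher (28%) and 0 lower, with a median of 0.69. Prohibitin 1, a scaffold protein of that membrane, rose at LOC117433316 from 1.02, 1.67 and 2.59 to 11.9, 14.1 and 22.05 FPKM (2.62; adjusted p = 0.00903) and at LOC117434677 (2.22), and OPA1 LOC117423478, a fusion and cristae GTPase, rose with a log2 fold change of 1.9 (adjusted p = 0.0123).

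**Figure D5:**
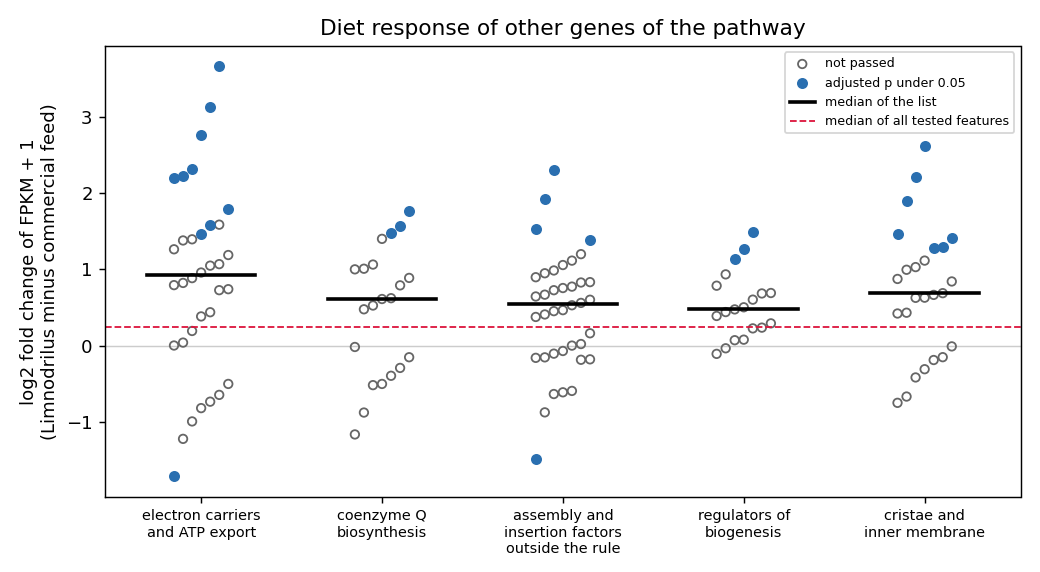
Log2 fold change of FPKM + 1, Limnodrilus minus commercial feed, of the tested loci of 5 lists of genes that work beside the complexes, with filled points at an adjusted p under 0.05. Black bars mark list medians, 0.47 to 0.92, above the dashed median of all tested features, 0.24; 2 called loci lie below 0.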

How the data were processed

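The deposited table gives FPKM for 6 gut libraries and a length per feature, computed by the authors. The submitters' processing notes, per the labels, name cutadapt 1.9 and the mouse build mm10, whereas the table uses RefSeq sequence names that are not of mm10. For the aligner, counter, assembly and use of strand, nothing is given in the sources used here. Coordinates are those of the deposited table. Per the labels' protocols, poly(A) RNA was taken for the libraries.

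Reads were recovered as FPKM times length; values up to about 20 reads were whole within 0.1 in 100% of cases, and 93.5% to 96.3% of all values. Floors from 3 reads cover counting error only. Log2(FPKM + 1) was compared with limma 3.58.1 (trend, 2-sided) in R 4.3.3 over the 23644 features averaging 1 FPKM or more, with Benjamini-Hochberg adjustment and a threshold of 0.05. Fold changes on this scale understate the change of low loci. The same 6 libraries gave the comparison of locus pairs by limma without trend, adjusted over 5987 pairs. The procedure was tested on simulated data.

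The loci, lists and tests were chosen with earlier results of these data known, and list patterns were corrected once product names had been read. Loci were named by rule: in each complex up to 3 called subunits of smallest p per direction and the locus of highest mean over the 6 libraries, up to 3 called assembly factors, all succinate dehydrogenase subunits, the paralogous forms of cytochrome c oxidase, subunit c and NDUFA4, and up to 3 called loci per list (49 of the 178 loci, 30 of them called). Other called loci and pairs are given by value, and not all of their partner loci are given.

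Other settings were a minimum mean of 5 FPKM or none, a pseudocount of 0.1, median-of-ratios scaling, scaling without mitochondrial and ribosomal RNA, removal of each library's length trend, limma-voom on recovered reads, a replicate block, and leaving out libraries. Lists of immune, erythroid and striated muscle markers were also matched: mean log2 levels in commercial feed libraries 1 to 3 and then Limnodrilus libraries 1 to 3 were 1.35, 1.35, 4.32, 2.38, 2.39 and 3.79 for immune, 1.42, 5.93, 4.17, 4.51, 5.59 and 3.83 for erythroid, and 4.89, 4.22, 2.54, 3.91, 3.45 and 3.51 for striated muscle markers, with 1 erythroid locus called. Sequences were not used here, and the values of 1 protein are not reported here.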

Additional observations from a re-analysis of the deposited data

How the results depend on the processing

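The median log2 fold change of the tested loci stayed between 0.41 and 0.88 under all settings. All 45 loci called higher stayed above 0 under each setting in which they were tested (41 of them at a minimum mean of 5 FPKM). These loci were chosen by their calls in the same libraries, so their sign was largely fixed in advance. Of the 45, only 11, 5 and 1 were still called without Limnodrilus library 1, 2 or 3. Counted anew in each setting, the number of loci called higher was 42 with a pseudocount of 0.1 (25.8%, beside 12.6% of all tested features). It was 37 with no filter (21.3% beside 7.19%) and 43 at the higher minimum (30.5% beside 16.8%). With the length trend removed it was 57 (34.97% beside 13.8%), and with limma-voom 37 (22.7% beside 11.3%). Of the reported 45, these included 35 with no filter, 40 at the higher minimum and 44 with the length trend removed. The number called higher was 1 to 45 when 1 library was left out. For the loci called lower (2), the number was 0 with no filter (5 at an unadjusted p under 0.05), 1 at a minimum of 5 FPKM, 1 with limma-voom and 0 to 4 when 1 library was left out. Median-of-ratios scaling moved the share of higher among all calls from 79.4% to 59.99%. Under it, 5 of the 30 called loci named by rule did not pass (limma adjusted p of 0.0505 to 0.108). These were SDHA LOC117399409, 6B1 LOC131740188 and LOC131725030, and subunit c LOC117409396 and LOC117434602. Pairs that differed numbered 5 with a pseudocount of 0.1, 6 with no filter, 5 with limma-voom, 12 with median-of-ratios scaling and 0 to 18 when 1 library was left out. For pairs, the share over all pairs compared is given for the reported setting only. In their deviations from the diet means, same-numbered libraries of the diets correlated at 0.187, -0.069 and 0.075, and other combinations at -0.251 to 0.133. The labels do not say whether same-numbered libraries are paired, and correlations from so few libraries cannot decide it. A replicate block gave 30 loci higher (18.4%, beside 8.91% of all tested features), 1 lower and 4 pairs. The cause of these changes was not tested. Some of these fits also held fewer libraries or features, and the part of that was not tested either.

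Among the 49 loci named by rule, uncalled ones changed sign as follows; other uncalled loci were not followed. Median-of-ratios scaling gave -0.083 at LOC117394881, -0.037 at LOC117397097, -0.028 at LOC117400926 and -0.040 at LOC117966725. Leaving out commercial feed libraries 1 and 2 together gave 0.18 at LOC117394711, -0.19 at LOC117394881, -0.082 at LOC117397097, 1.15 at LOC117414968, -0.028 at LOC117425464, 0.35 at LOC117431391 and -0.14 at LOC117966725. With 1 library left out, the ranges were -0.32 to 0.67 at LOC117397097, -0.30 to 0.40 at LOC117400926, -1.26 to 0.056 at LOC117414968, -0.13 to 0.58 at LOC117425464, -0.39 to 0.52 at LOC117431391, -0.071 to 1.27 at LOC117432271 and -0.13 to 0.45 at LOC117966725.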
